A study of Mus musculus with 12 samples.

Results

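Messenger RNA of 9 genes that restrain or drive proteolysis outside the cell was followed in mouse embryonic fibroblasts with and without focal adhesion kinase (FAK), a tyrosine kinase found at integrin adhesions. The genes were chosen by name: the 4 tissue inhibitors of metalloproteinases (Timp1 to Timp4), the plasminogen activators Plau and Plat, the receptor Plaur, and the serpins Serpine2 and Serpinf1. They are 9 of the 17016 genes on the array, were covered by 14 probes, and are all among the 12435 genes tested. Timp4 and Serpine2 passed the filter on dim probes through 1 group each, dense KO cells and dense rescue cells, so counts and medians over the 9 genes are descriptions, as are those over the gene lists below.

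The knockout (KO) line lacks FAK and was grown without further antibiotics. The rescue line is 1 clone, DA2, of FAK knockout cells into which FAK was put back, and it was grown with 135 µg/ml hygromycin B and non-essential amino acids. FAK, clone and medium therefore cannot be told apart in the comparison of the lines. Dense cultures received 8200000 cells and sparse cultures 410000 cells in a 10 cm dish, and both were harvested with trypsin after 24 h. Cells for seeding could come from several pooled dishes. There were 3 cultures in each of 4 groups: dense KO, sparse KO, dense rescue and sparse rescue. The cultures of a group were grown on 3 different days, numbered 1 to 3, and 100 ng of total RNA from each was hybridised to its own one-colour array.

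Levels are log2 signals relative to the 75th percentile of the same array, and differences are given on the log2 scale, ± SE, from limma fitted to all 12435 genes with 3 cultures in every group. A gene changed when its Benjamini-Hochberg adjusted p over all genes was under 0.05. A probe counts as well above background when the scanner software says so. The 12 arrays had a median spot signal of 19.5 to 84.6 intensity units and 23150 to 26183 of 41174 probes well above background, no spot was saturated, and replicate arrays had correlations of 0.982 to 0.992 across genes (genes being no independent replicates). The number of arrays limits the precision. Of the probes for Ptk2, the FAK gene, 1 differed by -2.08 ± 0.31 between KO and rescue lines in sparse cells (limma over probes, adjusted p = 0.000167) and the brighter one by -0.11 ± 0.18 (adjusted p = 0.648), and where they lie relative to the deleted part is not known. In the authors' deposited value table, the 4 columns of day 3 matched best the scanner file of the other line at the same density (r = 0.972 to 0.984, against 0.833 to 0.874 with their own). The scanner files were used throughout, and the counts of changed genes below are also given from days 1 and 2 alone.

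Of 10 fibroblast markers 9 were tested. Against rescue cells, 0 were higher and 8 lower in dense KO cells, where 61.6% of all genes differed. In sparse KO cells 3 were higher and 5 lower, where 48.8% of all genes differed. The signal summed over the 10 markers, as a multiple of the array's 75th percentile, was 359.3 to 387.1 in dense KO and 328.6 to 360.7 in sparse KO cells, against 778.3 to 1183 in dense rescue and 782.5 to 881.1 in sparse rescue cells. Thy1 was not tested, and Lum rose well above background in dense rescue cells alone, the group through which it was kept. Of 6 mesothelial markers, 5 were higher and 1 was lower in dense KO cells, and 4 were higher and 1 lower in sparse KO cells. Wt1, Upk3b, Upk1b and Lrrn4 were kept through the KO groups alone, so the filter fixed part of these splits. The sum over the 6 markers was 79.2 to 85.4 in dense KO and 75.3 to 80.7 in sparse KO cells, against 23.6 to 36.1 in dense rescue and 24.6 to 42.1 in sparse rescue cells. In both rescue groups Wt1, Upk3b and Lrrn4 were not well above background on any array. The sum of 5 smooth muscle markers was 112.8 to 228.1 in dense KO and 259.4 to 322.3 in sparse KO cells, against 65.5 to 84.4 in dense rescue and 181.2 to 215.7 in sparse rescue cells. Of 5 epithelial markers 3 were tested. In dense KO cells Krt14 was higher by 7.03 ± 0.30 and Cdh1, well above background there on no array and in dense rescue cells on 3, was at least 3.03-fold lower. The sum over the 5 markers was 22.5 to 26.8 in dense KO and 8.67 to 14.0 in sparse KO cells, against 0.239 to 0.325 in dense rescue and 0.851 to 1.82 in sparse rescue cells. The sums of the endothelial and macrophage markers were at most 0.25 and 0.839 on any array, and Pecam1, Tie1 and Ptprc were well above background on none. Csf1r was so on 3 of 3 arrays in every group and Lyz2 on 3 of 3 in each rescue group. Kdr was so on 3 of 3 dense rescue arrays alone and Tek on 3 of 3 dense KO arrays alone. Cdh5 was so on 1 dense rescue array and Adgre1 on 1 array of each KO group. These levels moved with line or density, as the genes below did, and their part in the results was not tested.

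As background, matrix metalloproteinases are kept in check by TIMPs, secreted proteins that bind the active site, and TIMP3 differs from the others in staying bound to the matrix and in also blocking several ADAM proteases. The plasminogen activators uPA, encoded by Plau, and tPA, encoded by Plat, cut plasminogen into plasmin, a serine protease that dissolves fibrin and cleaves matrix proteins and latent metalloproteinases. uPAR, encoded by Plaur, is a lipid-anchored receptor that holds uPA at the cell surface and works together with integrins. Protease nexin 1, encoded by Serpine2, is a serpin that blocks thrombin and both activators, and PEDF, encoded by Serpinf1, is a secreted serpin without protease inhibitor activity that is known for restraining blood vessel growth.

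Promoter sequences from RefSeq (mouse, GRCm38.p6) matched 7 of the 9 genes. Those of Plaur, Timp1 and Timp3 are shown because Plaur had the largest response to density of the 9 genes and Timp1 and Timp3 were lower in KO cells at both densities. Each is the 250 bases before the annotated start, 5′ to 3′ on the gene's strand, with matches to any of 3 motifs on either strand in capitals. The motifs were the AP-1 heptamer TGANTCA, the PEA3 hexamer AGGAAG, which ETS factors are known to bind, and the GC box GGGCGG, which reads CCGCCC on the other strand. The windows lie at chr7:24462233-24462482 for Plaur, inside the annotated span of the gene, at chrX:20869916-20870165 for Timp1 and at chr10:86300162-86300411 for Timp3, all on the plus strand.
Plaur: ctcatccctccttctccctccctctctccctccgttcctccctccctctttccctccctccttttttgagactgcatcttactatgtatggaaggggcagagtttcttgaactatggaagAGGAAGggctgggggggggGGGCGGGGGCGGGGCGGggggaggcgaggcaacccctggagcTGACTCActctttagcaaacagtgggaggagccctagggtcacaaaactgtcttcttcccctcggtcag
Timp1: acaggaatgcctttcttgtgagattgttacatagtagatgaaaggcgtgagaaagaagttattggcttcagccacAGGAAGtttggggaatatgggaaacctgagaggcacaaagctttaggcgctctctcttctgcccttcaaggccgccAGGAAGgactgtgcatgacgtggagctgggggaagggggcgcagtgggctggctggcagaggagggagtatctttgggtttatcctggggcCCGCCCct
Timp3: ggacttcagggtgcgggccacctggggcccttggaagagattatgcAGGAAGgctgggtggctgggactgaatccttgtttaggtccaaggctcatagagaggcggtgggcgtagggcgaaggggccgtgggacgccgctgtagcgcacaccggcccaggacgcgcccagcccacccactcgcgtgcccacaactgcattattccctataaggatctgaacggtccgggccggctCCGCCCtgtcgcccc
The Plaur window held 1 AP-1 heptamer, a pattern that matches itself on the other strand, at 69 bases before the start, 1 PEA3 hexamer at 130 bases and a run of 3 GC boxes that begins at 111 bases. Timp1 held 2 PEA3 hexamers, at 175 and 99 bases, and 1 GC box on the other strand, and Timp3 held 1 PEA3 hexamer at 204 bases and 1 GC box on the other strand. Among the 7 windows, TGANTCA occurred only in that of Plaur. Of all 32851 promoter windows of this length, 6.75% held TGANTCA, 29.5% held AGGAAG and 32.7% held GGGCGG. These matches describe letters in a window and are not evidence of binding.

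The first question was which of these genes differ between the lines. In dense cells 4 of the 9 genes were lower in KO than in rescue cells (Timp1, Timp2, Timp3 and Plau) and none was higher, where 61.6% of all genes tested differed, 31.9% higher and 29.7% lower. In sparse cells 4 were lower (Timp1, Timp3, Plau and Plaur) and 1, Plat, was higher, where 48.8% of all genes differed, 23.2% higher and 25.6% lower. The median over the 9 genes was -0.91 in dense and -0.26 in sparse cells, against 0.08 and 0.03 over all genes. When arrays were scaled to the spike-in RNA, the median of all genes moved to 0.88 in dense cells and -1.52 in sparse cells. The 9 genes then split into 2 higher and 2 lower in dense cells, where 55% of all genes differed. In sparse cells 0 were higher and 7 lower, where 76% of all genes differed. Plat in sparse cells turned to -0.14, which is 1.38 above the median of all genes, and Timp2 and Plau in dense cells did not pass (-0.61 and -0.11). This scaling shifts all genes of an array alike. Values relative to the median of all genes, here and below, therefore closely restate the main fit and add no support to it. From days 1 and 2 alone 3 genes changed in dense cells, since Plau was lost, and 5 in sparse cells.

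**Figure D1:**
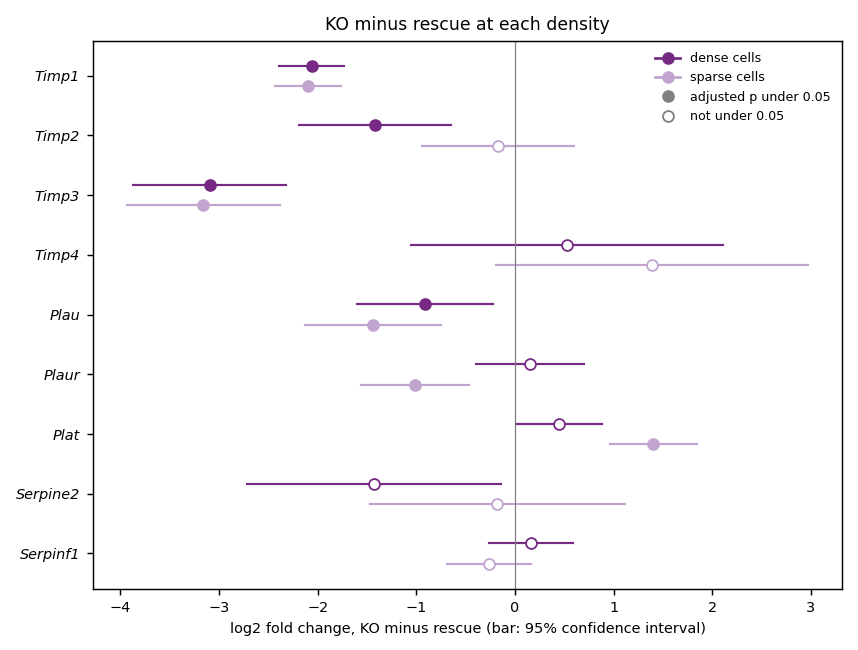
Log2 fold change of KO minus rescue (x axis) for each of the 9 genes in dense and in sparse cells, with 95% confidence intervals from the limma fit. Filled points are changes with adjusted p under 0.05. Timp1 and Timp3 lie near -2 and -3 at both densities, Timp2 is apart from 0 in dense cells only, and Plat is higher in sparse KO cells, a direction that turned to -0.14 with spike-in scaling.

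Timp1 (chromosome X, 20870166 to 20874737 on GRCm38.p6, as all positions here), a broad inhibitor of metalloproteinases, had levels of 3.55, 3.70 and 3.87 in dense KO and 4.64, 4.44 and 4.71 in sparse KO cells, against 5.88, 5.73 and 5.70 in dense rescue and 6.68, 6.72 and 6.69 in sparse rescue cells (days 1 to 3, an order kept below). Each of the 4 groups was apart from the others, with sparse rescue highest, then dense rescue, sparse KO and dense KO, and each step in this order passed the test. KO minus rescue was -2.06 ± 0.15 in dense cells, 4.18-fold lower (limma, adjusted p = 2.58e-07), and -2.10 ± 0.15 in sparse cells, 4.29-fold lower (adjusted p = 2.87e-07). Dense minus sparse was -0.89 ± 0.15 in KO cells (limma, adjusted p = 0.00546) and -0.93 ± 0.15 in rescue cells (adjusted p = 0.000568). The difference between those density responses was 0.04, with a 95% interval of -0.43 to 0.51. The call in KO cells was lost with median centring (-0.64), and with spike-in scaling the value there turned to 2.18, which is -0.89 relative to the median of all genes. A second probe of Timp1 gave -2.19 and -2.52 between the lines in dense and sparse cells, and -1.02 and -1.36 between the densities in KO and rescue cells, all of which passed.

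Timp3 (chromosome 10, 86300412 to 86349505), the inhibitor that stays in the matrix, had levels of 0.95, 1.93 and 2.33 in dense KO and 2.54, 2.66 and 2.72 in sparse KO cells, against 4.70, 5.30 and 4.48 in dense rescue and 6.36, 5.66 and 5.38 in sparse rescue cells. Every KO culture was below every rescue culture, and within each line the dense cultures were below the sparse ones. Between the lines, KO minus rescue was -3.10 ± 0.36 in dense cells, 8.55-fold lower (limma, adjusted p = 1.16e-05), and -3.16 ± 0.36 in sparse cells, 8.93-fold lower (adjusted p = 1.44e-05), the widest gap between the lines among the 9 genes. With density, dense minus sparse was -0.91 ± 0.36 in KO cells, which did not pass (limma, adjusted p = 0.126), and -0.97 ± 0.36 in rescue cells (adjusted p = 0.0477). The call in rescue cells was lost with the day as a block (adjusted p = 0.0613) and without any 1 of 8 arrays (dense KO 2, sparse KO 1, 2 and 3, dense rescue 1 and 3, sparse rescue 1 and 2), where the value was -1.04 to -0.69 and the adjusted p 0.0574 to 0.175.

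Timp2 (chromosome 11, 118301061 to 118355411), known both to block MMP2 and to take part in its activation at the cell surface, had levels of 6.22, 5.85 and 5.65 in dense KO and 7.06, 7.04 and 6.59 in sparse KO cells, against 6.99, 8.24 and 6.73 in dense rescue and 7.24, 7.30 and 6.67 in sparse rescue cells. Dense KO cells were below all 3 other groups, which overlapped, and the culture of day 2 stood high in dense rescue cells. KO minus rescue was -1.42 ± 0.35 in dense cells, 2.67-fold lower (limma, adjusted p = 0.00412), and -0.18 ± 0.35 in sparse cells, with a 95% interval of -0.95 to 0.60. Dense minus sparse was -0.99 ± 0.35 in KO cells (limma, adjusted p = 0.0943) and 0.25 ± 0.35 in rescue cells (adjusted p = 0.604). The difference between those responses was -1.24 ± 0.50 (limma, adjusted p = 0.101). With the day as a block the response in KO cells and the difference between the lines passed (limma, adjusted p = 0.0441 and 0.0451), as they did with the slide as a block (adjusted p = 0.0392 and 0.0362). Without dense rescue 2 the response in KO cells passed (limma, adjusted p = 0.0238), and without dense rescue 3 the difference was -1.54 and passed (adjusted p = 0.0482). With spike-in scaling the response in KO cells turned to 2.08 and the difference to 1.11. Relative to the medians of all genes these values are -0.99 and -1.29.

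Timp4 (chromosome 6, 115244444 to 115252205), the member best known from heart, was near background. Its levels were -4.22, -4.46 and -4.68 in dense KO and -3.49, -3.64 and -5.13 in sparse KO cells, against -5.01, -4.26 and -5.67 in dense rescue and -4.09, -7.43 and -4.93 in sparse rescue cells. It was well above background in 3 of 3 dense KO cultures and 2 of 3 in each other group, the groups overlapped, and none of the 5 tests passed (limma, adjusted p = 0.134 to 0.787). Without sparse rescue 1 the difference between the lines in sparse cells was 2.09 and passed (limma, adjusted p = 0.0325). That size rests in part on sparse rescue 2, at -7.43 and not well above background.

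**Figure D2:**
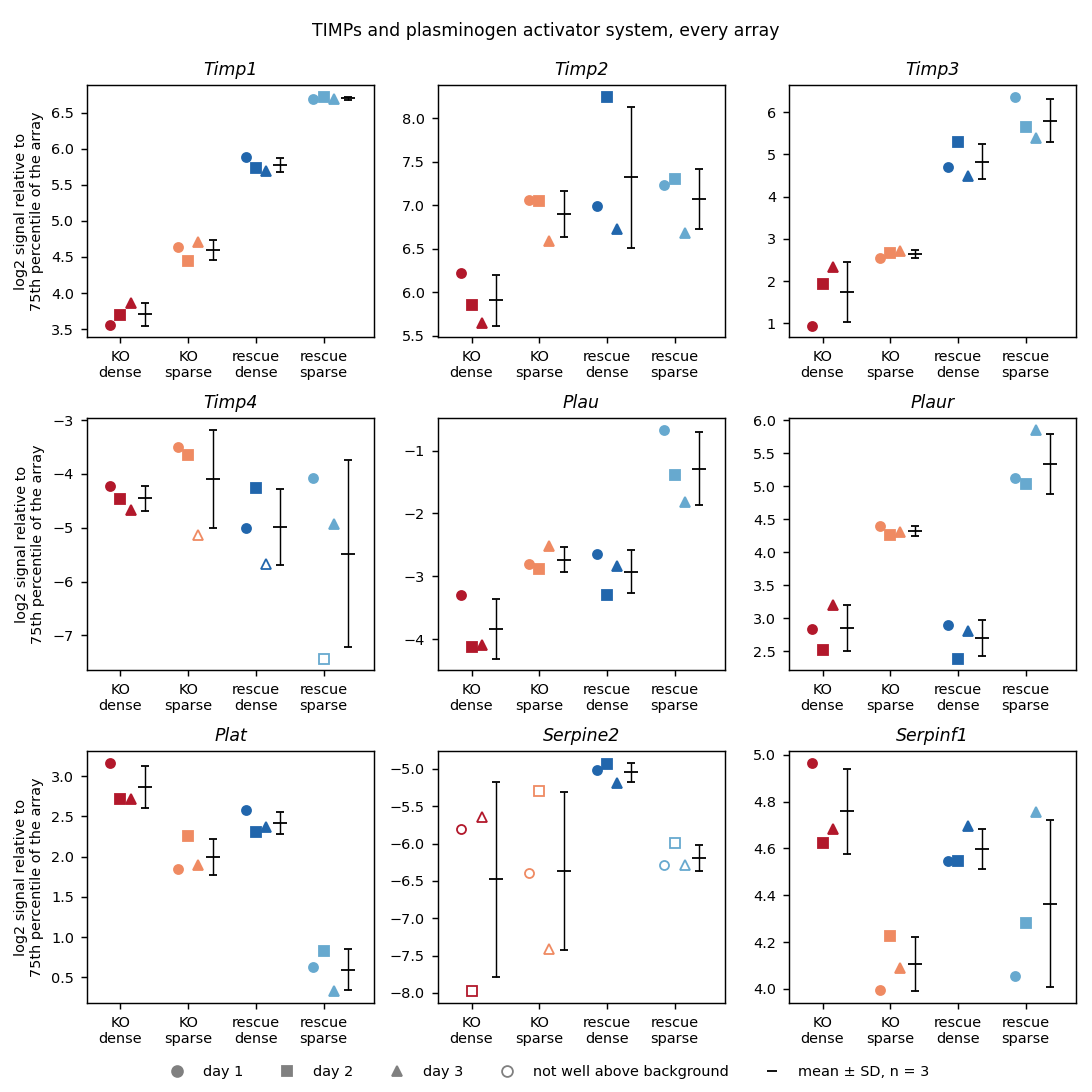
Level of each gene on every array (y axis, log2 signal relative to the 75th percentile of the array, each panel with its own scale) in the 4 groups, with the day as the symbol and mean ± SD (n = 3) in black. Open symbols are not well above background. Timp1 and Timp3 are lower in both KO groups, Plau and Plaur are highest in sparse rescue cells, and Plat is lowest there.

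Plau (chromosome 14, 20836662 to 20843388), the gene of the activator uPA, had levels of -3.29, -4.13 and -4.09 in dense KO and -2.80, -2.89 and -2.51 in sparse KO cells, against -2.64, -3.30 and -2.83 in dense rescue and -0.67, -1.39 and -1.82 in sparse rescue cells. Sparse rescue cells stood above all other groups, sparse KO and dense rescue cells overlapped (difference 0.19, limma, adjusted p = 0.612), and dense KO cells were lowest on average. Between the lines, KO minus rescue was -0.91 ± 0.32 in dense cells (limma, adjusted p = 0.025) and -1.44 ± 0.32 in sparse cells, 2.72-fold lower (adjusted p = 0.00248). With density, dense minus sparse was -1.10 ± 0.32 in KO cells (limma, adjusted p = 0.0455) and -1.63 ± 0.32 in rescue cells, 3.10-fold lower (adjusted p = 0.00163). The difference between these responses was 0.53, with a 95% interval of -0.44 to 1.51. The dense call between the lines was lost with the slide as a block (-0.90, adjusted p = 0.0843) and without dense KO 2 or 3 or dense rescue 1 or 3 (-0.86 to -0.76, limma, adjusted p = 0.0662 to 0.092). The call between the densities in KO cells was lost without any 1 of 8 arrays (dense KO 2 and 3, sparse KO 1, 2 and 3, dense rescue 1 and 3, sparse rescue 2), at -1.18 to -0.96, and turned to 1.97 with spike-in scaling, which is -1.10 relative to the median of all genes. With normexp background correction none of the 4 Plau calls passed (values of -0.15 and -0.67 between the lines in dense and sparse cells, -0.51 and -1.03 between the densities in KO and rescue cells). A dimmer second probe was lower in the same 4 comparisons and passed each (limma, adjusted p = 0.000444 to 0.00748). On that probe dense KO cells were not well above background, so its differences there are bounds, at least 1.81-fold lower than dense rescue and at least 2.40-fold lower than sparse KO cells.

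Plat (chromosome 8, 22757722 to 22782848), the gene of the activator tPA, had levels of 3.16, 2.71 and 2.71 in dense KO and 1.84, 2.25 and 1.89 in sparse KO cells, against 2.57, 2.31 and 2.37 in dense rescue and 0.62, 0.83 and 0.32 in sparse rescue cells. Sparse rescue cells were lowest and apart from the rest, and neighbours among the other 3 groups did not differ beyond the threshold. KO minus rescue was 1.40 ± 0.20 in sparse cells, 2.64-fold higher (limma, adjusted p = 0.000111), and 0.45 ± 0.20 in dense cells, with groups apart but no call (adjusted p = 0.0729). Dense minus sparse was 0.87 ± 0.20 in KO cells, 1.83-fold higher (limma, adjusted p = 0.0198), and 1.82 ± 0.20 in rescue cells, 3.54-fold higher (adjusted p = 4.02e-05). Each of these values had the opposite sign to that of Plau. The call in KO cells was lost without dense KO 1 or 2 or sparse KO 1 or 3 (0.72 to 0.94, limma, adjusted p = 0.0542 to 0.0793) and on the second probe (0.33, adjusted p = 0.368). The second probe gave 1.55 between the lines in sparse cells and 1.68 between the densities in rescue cells, and both passed.

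Plaur (chromosome 7, 24460937 to 24475970), the gene of the receptor uPAR, had levels of 2.84, 2.51 and 3.21 in dense KO and 4.40, 4.26 and 4.31 in sparse KO cells, against 2.90, 2.39 and 2.81 in dense rescue and 5.12, 5.04 and 5.86 in sparse rescue cells. Sparse cultures of either line were above all dense cultures, and the dense groups overlapped. With density, dense minus sparse was -1.47 ± 0.25 in KO cells, 2.77-fold lower (limma, adjusted p = 0.00546), and -2.64 ± 0.25 in rescue cells, 6.22-fold lower (adjusted p = 1.71e-05). Between the lines, KO minus rescue was -1.02 ± 0.25 in sparse cells, 2.02-fold lower (limma, adjusted p = 0.00549), and 0.15 ± 0.25 in dense cells, with a 95% interval of -0.40 to 0.70. The second probe gave -1.71 and -2.43 between the densities in KO and rescue cells and -0.85 between the lines in sparse cells, and each passed. With spike-in scaling the response in KO cells turned to 1.60, which is -1.47 relative to the median of all genes.

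Serpine2 (chromosome 1, 79794317 to 79858665), the gene of protease nexin 1, was well above background in dense rescue cells alone, at -5.02, -4.93 and -5.18. The signals not well above background were -5.80, -7.98 and -5.65 in dense KO, -6.39, -5.30 and -7.42 in sparse KO and -6.29, -5.99 and -6.29 in sparse rescue cells. Dense KO cells were at least 1.70-fold lower than dense rescue cells, and dense rescue cells were at least 1.89-fold higher than sparse rescue cells. Serpine2 was kept through dense rescue cells alone, the group where it was high, so these bounds describe the signals and no p-value is given for them.

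Serpinf1 (chromosome 11, 75410029 to 75422623), the gene of PEDF, had levels of 4.97, 4.62 and 4.68 in dense KO and 4.0, 4.23 and 4.09 in sparse KO cells, against 4.55, 4.55 and 4.70 in dense rescue and 4.06, 4.28 and 4.76 in sparse rescue cells. The groups of the lines overlapped at both densities, and dense KO cultures were above sparse KO cultures. KO minus rescue was 0.16 in dense cells (95% interval -0.27 to 0.59) and -0.26 in sparse cells (-0.69 to 0.17). Dense minus sparse was 0.65 ± 0.19 in KO cells, just outside the threshold (limma, adjusted p = 0.0527), and 0.23 ± 0.19 in rescue cells (adjusted p = 0.365). The response in KO cells passed without sparse rescue 1 or 3 (0.65, limma, adjusted p = 0.0454 and 0.022), and with quantile scaling (0.76) or median centring (0.91). On the second probe it was 0.23 ± 0.34 and the groups overlapped (limma over probes, adjusted p = 0.698).

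The second question was how the genes respond to seeding density in each line. In KO cells 3 of the 9 genes were lower in dense than in sparse cultures (Timp1, Plau and Plaur) and Plat was higher, where 10.9% of all genes tested changed, 5.44% higher and 5.47% lower. In rescue cells 4 were lower (Timp1, Timp3, Plau and Plaur) and Plat was higher, where 40% of all genes changed, 19% higher and 21% lower. The median over the 9 genes was -0.89 in KO and 0.23 in rescue cells, against -0.0029 and -0.08 over all genes. Scaling to the spike-in RNA moved the median of all genes to 3.07 in KO and 0.64 in rescue cells. All 9 genes were then higher in dense KO cells, where 99.5% of all genes changed and 100% of those were higher. In dense rescue cells 2 were higher and 1 lower, where 27.4% of all genes changed, and Timp1 (-0.21), Timp3 (-0.25) and Plau (-0.91) did not pass. Relative to those medians, each gene that changed kept its sign, an outcome fixed in advance because the scaling shifts all genes of an array alike. From days 1 and 2 alone 2 genes changed in KO cells and 4 in rescue cells. With median centring the KO response split into 2 genes higher and 1 lower, and with quantile scaling into 2 higher and 2 lower. With normexp background correction none of the 4 KO calls passed (limma, adjusted p = 0.0538 to 0.741), and Timp1, Plaur and Plat in rescue cells did.

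**Figure D3:**
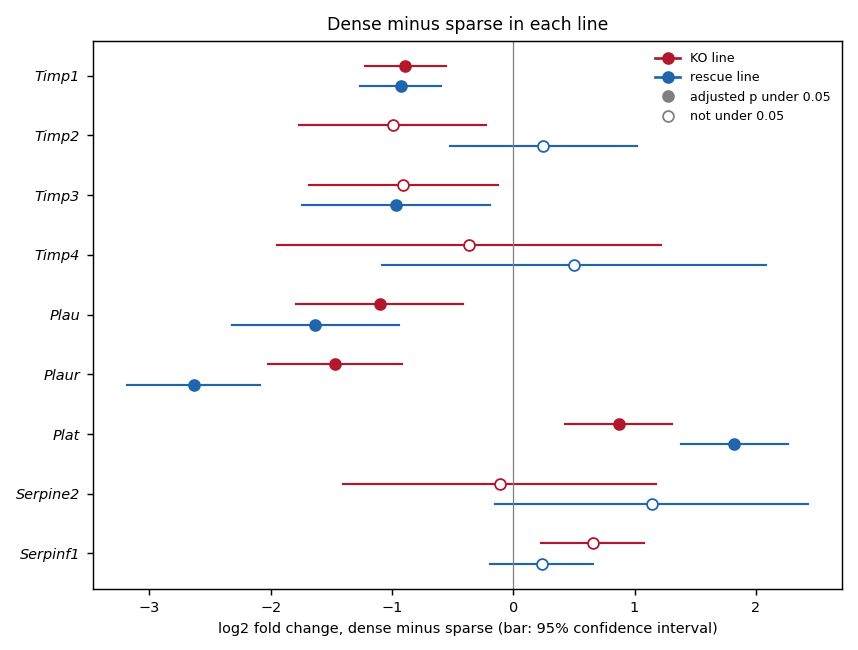
Log2 fold change of dense minus sparse cultures (x axis) for each of the 9 genes in the KO and the rescue line, with 95% confidence intervals from the limma fit. Filled points are changes with adjusted p under 0.05. Plaur fell by 1.47 in KO and 2.64 in rescue cells, and Plat was higher by 0.87 and 1.82. Under spike-in scaling the KO values of Timp1, Plau and Plaur turned positive.

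Dense and sparse cultures of a line and day shared a slide, so the response could be read within each slide. For Plaur it was -1.55, -1.74 and -1.11 in KO cells and -2.22, -2.65 and -3.04 in rescue cells on days 1 to 3, with no overlap between the lines. For Plat it was 1.32, 0.46 and 0.82 in KO cells and 1.95, 1.47 and 2.05 in rescue cells, again with no overlap. For Plau it was -0.49, -1.24 and -1.58 in KO cells and -1.97, -1.92 and -1.01 in rescue cells, which overlapped. Timp1 gave -1.08, -0.75 and -0.84 in KO cells and -0.80, -0.99 and -1.0 in rescue cells, which overlapped too. Timp2 gave -0.84, -1.19 and -0.94 in KO cells and -0.24, 0.94 and 0.05 in rescue cells, with no overlap. Timp3, Timp4, Serpine2 and Serpinf1 overlapped. The share of all genes without overlap was not determined, and the test of the difference below uses these same values.

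The third question was whether the density response differs between the lines. It did for 2 of the 9 genes, where 20.7% of all genes tested differed (11.3% higher and 9.47% lower), and both responses were smaller in KO than in rescue cells. For Plaur the KO response minus the rescue response was 1.17 ± 0.36 (limma, adjusted p = 0.0377), and for Plat it was -0.96 ± 0.28 (adjusted p = 0.0344), a value that turned to 1.39 with spike-in scaling while the median of all genes moved to 2.39. Either call depended on single arrays. Plaur lost it without dense KO 1 or 3, sparse KO 1, 2 or 3, dense rescue 2 or 3 or sparse rescue 3 (0.91 to 1.22, limma, adjusted p = 0.0518 to 0.089). Plat lost it without dense KO 2 or 3, sparse KO 2 or 3, dense rescue 1 or 3 or sparse rescue 1 or 3 (-1.01 to -0.82, adjusted p = 0.0515 to 0.086). On second probes the difference was 0.72 for Plaur (limma, adjusted p = 0.0802) and -1.35 for Plat (adjusted p = 0.0146). From days 1 and 2 alone, with normexp or with no filter on dim probes neither passed. Plaur did not pass with quantile scaling (1.13, limma, adjusted p = 0.0599), and Plat did not pass with median centring (-0.71) or with the slide as a block (-0.96, limma, adjusted p = 0.0581).

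The lines shared a slide on day 2 only, and on days 1 and 3 line and slide cannot be told apart. Within the shared slide, with 1 culture per group and no test, KO minus rescue in dense and sparse cells was -2.03 and -2.28 for Timp1, -3.38 and -3.00 for Timp3, -2.39 and -0.26 for Timp2 and -0.83 and -1.50 for Plau. It was 0.41 and 1.42 for Plat and 0.12 and -0.78 for Plaur. Each of these had the sign found over all days.

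The 9 genes varied in different ways over the 12 arrays. After each gene's mean was subtracted, the root mean square difference between a pair of them was smallest for Timp1 with Timp3 (0.64) and with Plau (0.64) and for Plau with Plaur (0.71), and largest for Timp3 with Plat (2.39). Among all genes, those closest to Timp1 by this measure were Top1mt (0.17), Map6 (0.21) and Tmem120a (0.24), where the median gene was at 1.29. Closest to Timp3 were Hspb8 (0.37), Il17ra (0.39) and Cnn2 (0.41), and closest to Timp2 were Mdh1b (0.24), Krtcap3 (0.25) and Atp5mpl (0.26). Plau was nearest to Lactb (0.38), Phlda1 (0.41) and Actg2 (0.41), Plaur to Fam71f1 (0.35), Pspn (0.36) and Sema4f (0.37), and Plat to Tspan32 (0.21), Gga2 (0.23) and Tcf7l1 (0.25). Serpinf1, which varied least, was nearest to St7l (0.11), Xpa (0.14) and Ssbp2 (0.14). The arrays share lines and densities, so likeness over them is a description.

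Of 23 other genes of the plasminogen system (inhibitors, binding proteins and clearance receptors) 15 were tested. In dense cells 2 were higher and 8 lower in KO cells, with a median of -0.59, where 61.6% of all genes differed. With spike-in scaling 2 were higher and 5 lower there, with a median of 0.21, where 55% of all genes differed. In sparse cells 1 was higher and 9 lower, with a median of -0.94, where 48.8% of all genes differed. Over the 9 genes well above background on all 12 arrays, 0 were higher and 7 lower in dense and 0 higher and 8 lower in sparse cells. Serpinb2, the gene of the activator inhibitor PAI-2, was lower in sparse KO cells by -2.67 ± 0.28 (limma, adjusted p = 8.93e-06). Lrp1, a receptor that takes up activator and inhibitor complexes, was lower in dense KO cells by -3.09 ± 0.38, and Mrc2, a collagen receptor that associates with uPAR, by -3.25 ± 0.22. Serping1, the C1 inhibitor, was higher in dense KO cells by 6.00 ± 0.51 and at least 12.8-fold higher in sparse KO cells. In dense rescue cells it was well above background on 2 of 3 arrays, so the size of 6.00 rests in part on signals near background. Serping1 was kept through the KO groups alone, where it was high, so these values are descriptions and no p-value is given.

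With density, 1 of these 15 genes was higher and 2 were lower in dense KO cells, and 4 were higher and 2 lower in dense rescue cells. With spike-in scaling 14 were higher and 0 lower in KO cells, where 99.5% of all genes changed. In rescue cells 5 were then higher and 2 lower, where 27.4% changed. Without that scaling the shares were smaller in KO cells. Over all genes tested, 10.9% changed in KO and 40% in rescue cells. Serpinb2 was lower in dense cells of both lines, where it was well above background on 1 of 3 KO and 2 of 3 rescue arrays, so the sizes below rest in part on signals near background. Its response was -2.34 ± 0.28 in KO and -4.57 ± 0.28 in rescue cells, and it was smaller in KO cells by 2.24 ± 0.40. Serpinb2 was kept through the sparse groups alone, where it was high, so these values are descriptions and no p-value is given. With spike-in scaling its response in KO cells turned to 0.73, which is -2.33 relative to the median of all genes. Igf2r, which binds latent TGF-beta and uPAR, was higher in dense than in sparse rescue cells by 1.93 ± 0.22 (limma, adjusted p = 4.85e-05).

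Of 27 proteases and binding partners of the TIMPs 24 were tested. In dense cells 3 were higher and 19 lower in KO cells, with a median of -2.64, and in sparse cells 4 were higher and 12 lower, with a median of -0.80, where 61.6% of all genes differed in dense and 48.8% in sparse cells. The filter on dim probes fixed part of this split, since 6 of the 24 were not well above background on any dense KO array and were kept through rescue groups, and Mmp15 was kept through KO groups. Over the 16 genes well above background on all 12 arrays, 2 were higher and 12 lower in dense cells, with a median of -1.79, and 3 were higher and 8 lower in sparse cells, with a median of -0.63. With spike-in scaling the split was 3 higher and 15 lower in dense and 2 higher and 20 lower in sparse cells, where 55% and 76% of all genes differed. The collagenase gene Mmp13 and the stromelysin gene Mmp3 were well above background in dense rescue cells alone, so dense KO cells lay at least 10.7-fold lower for Mmp13 and at least 15.0-fold lower for Mmp3, bounds on genes that were kept through that group alone. The procollagen peptidase gene Adamts2 and the aggrecanase gene Adamts5 were lower in sparse KO cells by -4.11 ± 0.29 and -3.90 ± 0.24 (limma, adjusted p = 1.97e-07 and 7.48e-08). Mmp15, a membrane-type metalloproteinase, was at least 9.44-fold higher in dense and at least 3.89-fold higher in sparse KO cells, and Mmp23 was higher by 3.91 ± 0.41 and 5.15 ± 0.41. Reck, which encodes a membrane-anchored inhibitor of metalloproteinases, was higher in dense than in sparse cells of both lines, by 1.73 ± 0.29 in KO and 1.03 ± 0.29 in rescue cells (limma, adjusted p = 0.00523 and 0.0154).

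In rescue cells 13 of these 24 genes were higher and 2 lower in dense than in sparse cultures, with a median of 1.07, against 4 higher and 3 lower in KO cells, with a median of -0.12 (23 higher and 0 lower with spike-in scaling, which called 99.5% of all genes). Over all genes tested, 40% changed in rescue and 10.9% in KO cells. The difference between the responses passed for 11 genes, higher in KO cells for 1 and lower for 10, where it passed for 20.7% of all genes. Over the 16 genes well above background on all arrays it was lower for 6 and higher for 0. With spike-in scaling the split over the 24 was 11 higher and 3 lower, where 86.5% of all genes passed. Mmp2, whose activation TIMP2 and the product of Mmp14 mediate, was singled out after its values were seen: it was lower in dense KO cells by -4.32 ± 0.28, and its response to density was -0.28 in KO and 2.78 in rescue cells, a difference of -3.06 ± 0.40 (limma, adjusted p = 0.000456), which was -0.71 and did not pass with spike-in scaling. Mmp14, chosen in the same way, was lower in dense KO cells by -3.39 ± 0.38 (limma, adjusted p = 9.36e-06). Adam19 was lower in dense than in sparse KO cells by -2.16 ± 0.23 (limma, adjusted p = 0.00105), a value that turned to 0.91 with spike-in scaling.

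**Figure D4:**
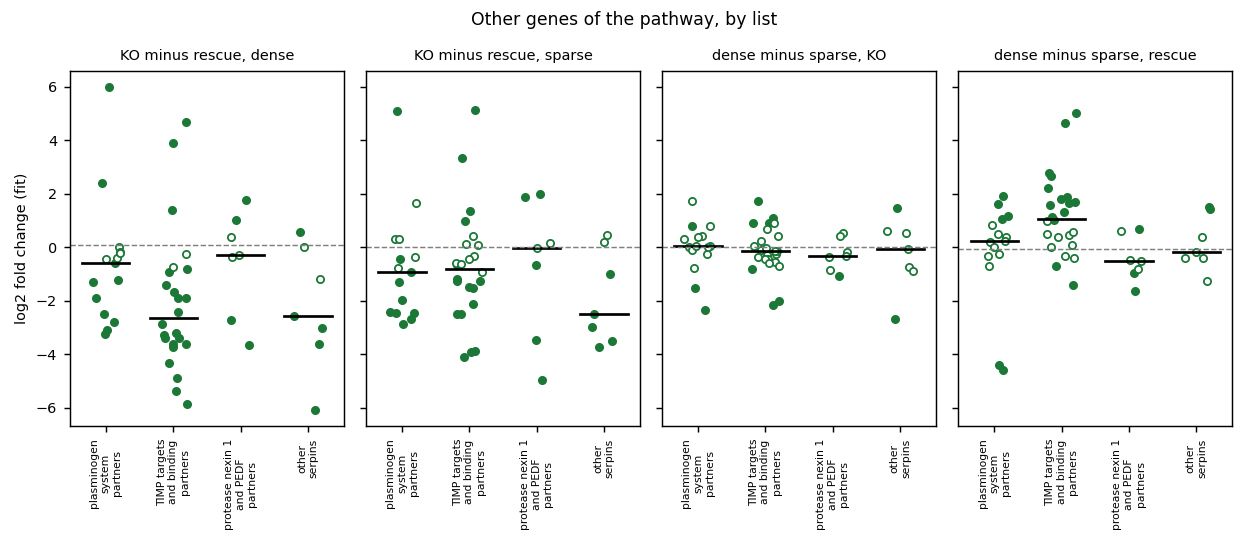
Log2 fold changes (y axis, as fitted) of the genes of 4 lists in 4 comparisons, with filled points for adjusted p under 0.05, a black line at the median of the list and a dashed grey line at the median of all genes. The TIMP target list has 19 of 24 genes lower in dense KO cells, where 29.7% of all genes were lower. It has 13 of 24 higher in dense than in sparse rescue cells, where 19% of all genes were higher. With spike-in scaling 23 of 24 were higher in dense than in sparse KO cells, where 99.5% of all genes changed.

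Of 9 partners of protease nexin 1 and PEDF 7 were tested. In dense cells 2 were higher and 2 lower in KO cells, where 61.6% of all genes differed. In sparse cells 2 were higher and 3 lower, where 48.8% differed. Thbs1, the gene of thrombospondin 1, was lower in KO cells by -2.71 ± 0.39 in dense and -3.48 ± 0.39 in sparse cells, and Gpc1, a heparan sulfate proteoglycan gene, by -3.65 ± 0.45 and -4.98 ± 0.45. Sdc4, the gene of the proteoglycan syndecan 4, was higher in KO cells by 1.78 ± 0.29 and 1.87 ± 0.29. Between densities 1 was lower in KO cells, and 1 was higher and 2 lower in rescue cells (7 higher in KO and 2 higher in rescue cells, none lower, with spike-in scaling, which called 99.5% and 27.4% of all genes). Over all genes tested, 10.9% changed in KO and 40% in rescue cells.

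Of 11 other serpins 7 were tested. In dense cells 1 was higher and 4 lower in KO cells, where 61.6% of all genes differed, and in sparse cells 0 were higher and 5 lower, where 48.8% differed. With spike-in scaling the splits were 1 higher and 4 lower in dense and 0 higher and 7 lower in sparse cells, where 55% and 76% of all genes differed. Between densities 6 were then higher and 0 lower in dense KO cells, where 99.5% of all genes changed. Serpinb8 was not well above background in KO cells and was kept through the rescue groups alone, and KO cells were at least 27.3-fold lower in dense and at least 6.80-fold lower in sparse cells. Serpinb9, an inhibitor of granzyme B, was lower in sparse KO cells by -3.52 ± 0.20 (limma, adjusted p = 3.89e-08). Serpinh1, the collagen chaperone HSP47, was higher in dense KO cells by 0.56 ± 0.21 (adjusted p = 0.0391). Serpinb1a was higher in dense than in sparse cells by 1.47 ± 0.27 in KO and 1.49 ± 0.27 in rescue cells (limma, adjusted p = 0.0074 and 0.00115).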

How the data were processed

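Per the labels, 100 ng of total RNA was labelled with Cy3 and hybridised to Agilent one-colour arrays, and signals were read with Agilent Feature Extraction (version 10 in the submitters' processing notes, 10.5.1.1 per the file headers). The deposited scanner files hold intensity on a linear scale, corrected for background and spatial trend on each array but with no scaling between arrays, per the file headers. The deposited value table holds log2 intensity, and its normalisation is not given in the sources used here; its 4 columns of day 3 are described with the results, and it served as an alternative.

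From the intensities, log2 processed signals of 43379 spots that are not controls were averaged over spots of a probe (41174 probes), spots flagged as not uniform or as population outliers were left out, and each array's 75th percentile was subtracted. Probes were named by their RefSeq transcript (GRCm38.p6 symbols). A probe was kept if all 3 arrays of some group had it well above background (25927 probes), and the one with the highest mean stood for its gene. Limma 3.58.1 in R 4.3.3 fitted 4 group means to 12 arrays, with Benjamini-Hochberg adjustment over all genes in each comparison. Second probes and Ptk2 were tested in the same fit of all kept probes. For a group with no array well above background, "at least" compares the brighter mean with, on each dim array, the higher of the probe's own signal and the lowest signal well above background. The fit was tested on simulated data.

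The replicate number is the day given in the labels, so it pairs the cultures. Of 18 pairs of arrays of a day, 11 had deviations from the group means that correlated above 0.1, with a range of -0.04 to 0.30. A block for day was an alternative only. The members, the gene lists and the markers were chosen with earlier results of these data known. Of each list, called genes with the 2 largest rises and 2 largest falls in a comparison were eligible to be named, and 1 result that this rule would name is not reported here. Alternatives were the day or the slide as a block, normexp (offset 50), quantile, median and spike-in scaling, other probe filters and probe choices, the deposited table, days 1 and 2 alone, and leaving out each array.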

Additional observations from a re-analysis of the deposited data

Results flagged for a closer look

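The response to density differed between the lines by a test of that difference for 2 of the 9 genes. For Plaur, dense minus sparse was -1.47 in KO and -2.64 in rescue cells, and the difference was 1.17 (limma, adjusted p = 0.0377). For Plat, it was 0.87 in KO and 1.82 in rescue cells, and the difference was -0.96 (adjusted p = 0.0344). The same test passed for 11 of the other genes named. They were picked by their calls or after their values were seen, so this count is not comparable with the 20.7% of all genes that passed. Of the plasminogen system these were Serpinb2 (2.24) and Igf2r (-1.54). Of the TIMP targets they were Mmp15 (1.33), Mmp3 (-4.91), Mmp13 (-5.45), Adam19 (-4.38), Adam10 (-2.10), Mmp2 (-3.06) and Mmp14 (-1.85). Of the other serpins they were Serpinb8 (-2.35) and Serpinb9 (0.96). Adam10, the gene of an ADAM protease that TIMP3 and TIMP1 inhibit, was lower in dense than in sparse KO cells by -2.01, against 0.08 in rescue cells, and the KO value turned to 1.06 with spike-in scaling. Spike-in scaling moved the median difference of all genes to 2.39. The differences of Igf2r, Mmp14 and Adam10 turned to 0.81, 0.49 and 0.25, Serpinb8 and Mmp2 were at -0.0019 and -0.71, and none of these 5 passed. Mmp3 and Mmp13 outside dense rescue cells, Serpinb8 in KO cells and Mmp15 in rescue cells were not well above background, and Serpinb2 was so on 1 of 3 dense KO and 2 of 3 dense rescue arrays. The sizes given for these genes are fitted values near background and not bounds. The filter kept these genes through groups where they were high, so their passes in this test are descriptions and no support. Groups of 3 cultures were not searched for outlying samples.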

How the results depend on the processing

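The differences between the lines in Timp1 and Timp3 at both densities, in Plaur in sparse cells, and the Plaur and Plat responses to density in rescue cells passed in every alternative with a test except the deposited value table. Other calls are less firm, and the cause of their loss was not tested. Of 20 calls, the table lost all 20: the number of the 9 genes called was 0 in each of the 5 comparisons, and Plau in dense cells moved to 0.0007. Its columns of day 3 match the other line. From days 1 and 2 alone, the table gave 5 and 4 genes between the lines in sparse and dense cells, 4 between densities in rescue cells, 1 in KO cells and 0 for the difference of responses, and the scanner files gave 5, 3, 4, 2 and 0, with fewer samples. Normexp gave 3 between densities in rescue cells, 0 in KO cells and 0 for the difference, where it called 47 of 12435 genes in KO cells. The difference of responses had 1 gene with median centring, 0 with no filter on dim probes, which tests more genes, and 1 with second probes. With the replicate block 5, 4, 4, 5 and 3 genes were called, and apart from the Timp2 and Timp3 changes given with the results the pairing by day changed no other call.

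Spike-in scaling called 3 genes between densities in rescue cells, 9 in KO cells and 5 for the difference, where it called 27.4%, 99.5% and 86.5% of all genes. Its values turned in sign were -0.14 for Plat between the lines in sparse cells, 1.39 for the Plat difference of responses, and, between densities in KO cells, 2.18 for Timp1, 2.08 for Timp2, 2.16 for Timp3, 2.71 for Timp4, 1.97 for Plau, 1.60 for Plaur and 2.96 for Serpine2, where 100% of calls over all genes were higher. Without it 49.9% were, with median centring 80.9% and with quantile scaling 63.2%. In the other comparisons the share higher with spike-in scaling was 6.15% between the lines in sparse cells (47.6% without it, 30.6% with median centring), 78.1% in dense cells (51.8%), 90.6% between densities in rescue cells (47.5%) and 99.5% for the difference (54.4%). Leaving out 1 array gave 5 to 6 genes between the lines in sparse cells, 3 to 5 in dense cells, 4 to 5 between densities in rescue cells, 2 to 5 in KO cells and 0 to 2 for the difference. Normexp on mean spot signals was not run, since median signals were used in its place; this, second probes and days 1 and 2 alone were chosen after seeing the data. Replicates are separate cultures of 1 line, so p-values measure the spread between days. Timp4 and Serpine2 lie near background, which limits what can be seen in them.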
